A study of Mus musculus with 10 samples.

Results

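The Ikaros family comprises 5 genes, Ikzf1 (Ikaros), Ikzf2 (Helios), Ikzf3 (Aiolos), Ikzf4 (Eos) and Ikzf5 (Pegasus). They were taken by symbol, and all 5 were found among the 15686 genes of the deposited expression matrix and the 55487 genes of the count tables. Their nuclear RNA was followed through the in vitro differentiation of HM-1 cells, a mouse embryonic stem (ES) cell line, into blood progenitors. The 5 stages were undifferentiated ES cells, FLK1+ hemangioblasts (HB) selected after 3 days of embryoid body culture, and 3 populations sorted from blast culture after a further 2.5 days. These 3 were KIT+ TIE2+ CD41- hemogenic endothelium (HE1), KIT+ TIE2+ CD41+ hemogenic endothelium (HE2) and KIT+ TIE2- CD41+ hematopoietic progenitors (HP). All cells came from this 1 line, with no treatment other than the differentiation itself, and HE1, HE2 and HP share a culture time, so the stage order after HB follows surface markers and not time. Each stage had 2 libraries of 24920434 to 58782055 counts, and the p-values measure the spread between such pairs of libraries.

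Ikaros family proteins are transcription factors with a group of zinc fingers near the N-terminus that binds DNA and a pair near the C-terminus through which they form homodimers and heterodimers. Ikaros, Helios, Aiolos and Eos are closely related and best known from lymphocytes, where Ikaros is needed for lymphoid development, Aiolos acts in B cell maturation and Helios and Eos are associated with regulatory T cells. Ikaros also acts in hematopoietic stem and progenitor cells and in the erythroid and megakaryocytic lineages, and recruits the NuRD, Sin3 and CtBP corepressors. Pegasus is the most divergent member and is expressed in many tissues.

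On mm10, Ikzf1 spans chr11:11685003-11772926 on the plus strand. The other members lie on minus strands: Ikzf2 at chr1:69531214-69687245, Ikzf3 at chr11:98464902-98546031, Ikzf4 at chr10:128630843-128669358 and Ikzf5 at chr7:131388652-131410521. The paralogues carry a similar finger array, so the coding bases of 1 finger are shown for each member to give the degree of likeness that a sequencing read has to resolve. The second finger of the pattern cysteine, 2 residues, cysteine, 12 residues, histidine, 3 residues, histidine is printed for Ikzf1 to Ikzf4, and the first for Ikzf5, whose nearest Ikzf1 finger was the third. Each is read from coding exons of the longest annotated coding transcript, on the coding strand, and the capitals mark the cysteine and histidine codons that hold the zinc ion.
Ikzf1 finger 2, exon 6, chr11:11754024-11754086: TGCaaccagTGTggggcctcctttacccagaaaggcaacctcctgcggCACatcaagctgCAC
Ikzf2 finger 2, exon 5, chr1:69570581-69570643: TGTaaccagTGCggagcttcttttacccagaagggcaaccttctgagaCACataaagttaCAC
Ikzf3 finger 2, exon 5, chr11:98488940-98489002: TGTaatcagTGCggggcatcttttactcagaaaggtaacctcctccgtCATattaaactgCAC
Ikzf4 finger 2, exon 5, chr10:128640229-128640291: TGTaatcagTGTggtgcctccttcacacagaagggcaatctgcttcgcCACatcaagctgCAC
Ikzf5 finger 1, exon 3, chr7:131393759-131393821: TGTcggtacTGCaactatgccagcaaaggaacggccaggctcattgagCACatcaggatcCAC
Of the 63 bases of Ikzf1 finger 2, the same finger of Ikzf2 and of Ikzf3 held 51 in common (81.0%) and that of Ikzf4 held 53 (84.1%). The Ikzf5 finger shared 38 bases (60.3%) with the third finger of Ikzf1. Across whole coding sequences the longest exact run shared by any pair was 26 bases, gatccctttgagtgtaacatgtgtgg, between Ikzf1 (exon 7 of one of its transcripts, chr11:11769483-11769508) and Ikzf3. Over all exons, coding or not, the longest was 32 bases, between Ikzf2 and Ikzf4. Ikzf1 and Ikzf2 shared no coding run over 17 bases. No gene on the same strand shared exon bases with any member. The largest overlap was on the opposite strand, where Pstk shared 4652 exon bases with Ikzf5, and the counting was stranded.

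The family separated into 3 patterns. Ikzf1 and Ikzf2 were low in ES cells, rose at HB and rose again between HE1 and HE2. Ikzf5 was present at every stage and passed no call, and Ikzf4 was highest in ES cells and fell. Ikzf3 was also highest in ES cells, but at few counts in any stage. Levels are given as CPM, counts scaled to one common library total after trimmed mean of M values (TMM) normalization, and 9 CPM is the level from which a gene counts as expressed in this study. By that measure 1 member, Ikzf5, was expressed in ES cells and 3 members, Ikzf1, Ikzf2 and Ikzf5, at every later stage. A gene is called changed between stages at an adjusted p under 0.05 and at least 2-fold in edgeR's quasi-likelihood test, adjusted by Benjamini-Hochberg over 22596 genes. In bulk libraries, fewer expressing cells and less RNA per cell cannot be told apart.

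**Figure D1:**
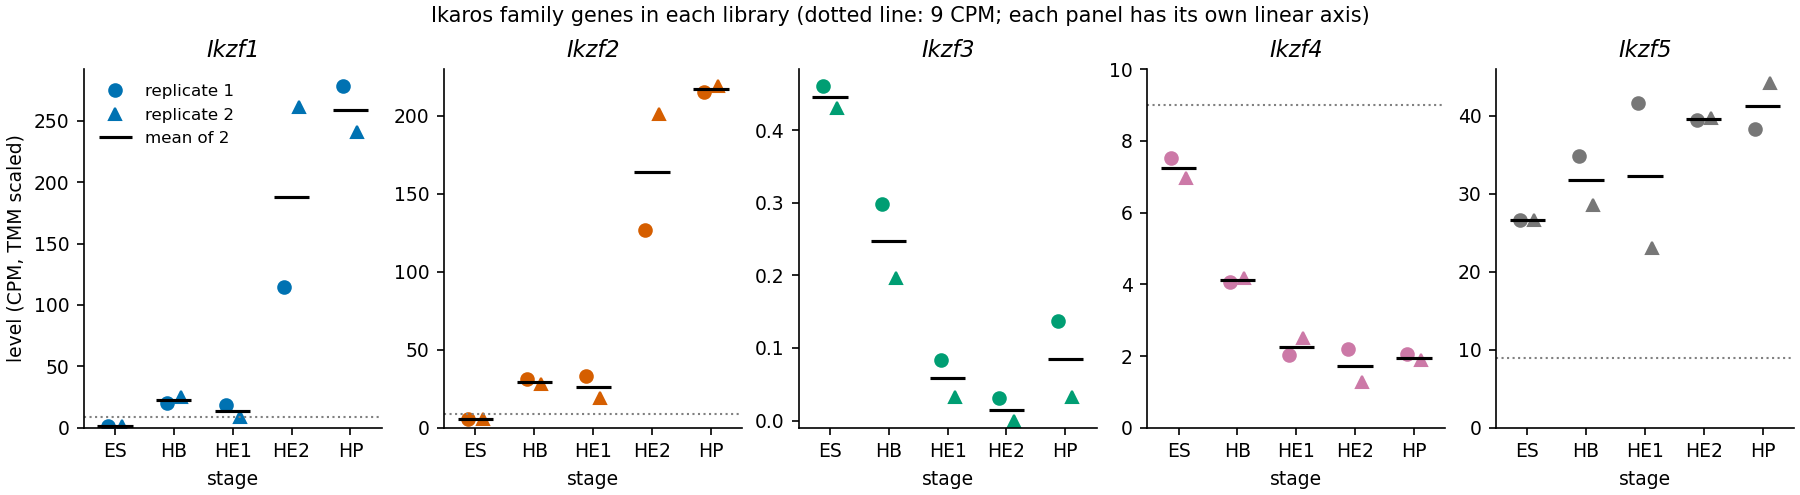
Level of each Ikaros family gene in CPM (TMM scaled, linear axis of its own for each gene) in the 2 libraries of each stage; circles and triangles are replicates 1 and 2, black bars their mean, and the dotted line marks 9 CPM (outside the range of the Ikzf3 panel). Ikzf1 rises from 1.68 to 259 CPM and Ikzf2 from 5.94 to 217 CPM, Ikzf5 stays between 23.1 and 44.2 CPM, and Ikzf3 and Ikzf4 are highest in ES cells.

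Ikzf1, which encodes the founding member of the family, stood at 1.72 and 1.64 CPM in the ES libraries. It stood at 20.1 and 25.0 CPM in HB, 18.5 and 9.08 CPM in HE1, 115 and 261 CPM in HE2, and 278 and 241 CPM in HP. The stages ES, HB and HE1 did not overlap with HE2 or HP in any library, while the HE2 and HP libraries overlapped each other. From ES to HB the fitted log2 fold change was 3.74 ± 0.434 (SE, adjusted p = 8.61e-05), a 13.4-fold rise. From HE1 to HE2 it was 3.77 ± 0.408 (adjusted p = 0.000747), a 13.7-fold rise. Between these steps both HE1 libraries lay below both HB libraries, but the difference was not called (log2 -0.71 ± 0.377, adjusted p = 0.17). That step depended on 1 library: without HE1 replicate 1 it was called lower (log2 -1.36, adjusted p = 0.036). From HE2 to HP the log2 fold change was 0.47 ± 0.361 (adjusted p = 0.95), with a 95% interval from -0.33 to 1.26, which includes values past 2-fold. Ordered by mean level, the stages ran ES, HE1, HB, HE2, HP. In this order ES differed from HE1 (log2 3.03, adjusted p = 0.00022) and HB from HE2 (log2 3.06, adjusted p = 0.000238), while the differences between HE1 and HB and between HE2 and HP were not called. Single libraries moved some of these folds by over 1.5 times, with every call kept. Without HE1 replicate 1 the fold from HE1 to HE2 was 21.1 and that from ES to HE1 was 5.28 in place of 8.16. Without HE2 replicate 2 the fold from HE1 to HE2 was 8.42 and that from HB to HE2 was 5.10 in place of 8.33. Over the whole course the rise was 154-fold (log2 7.27 ± 0.49, adjusted p = 1.52e-06).

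Ikzf2, which encodes Helios, followed the same order of stages from a higher start. Its ES libraries stood at 5.91 and 5.97 CPM and its HB libraries at 31.1 and 28.2 CPM. It stood at 32.9 and 18.8 CPM in HE1, 127 and 201 CPM in HE2, and 215 and 219 CPM in HP. The HB and HE1 libraries overlapped, and every HE2 and HP library lay above every library of the first 3 stages. It rose 4.99-fold from ES to HB (log2 2.32 ± 0.278, adjusted p = 0.000104) and 6.34-fold from HE1 to HE2 (log2 2.66 ± 0.274, adjusted p = 0.000643). HE1 was not called different from HB (log2 -0.20 ± 0.261, adjusted p = 0.582). Both HP libraries lay above both HE2 libraries, but the difference was not called (log2 0.41 ± 0.255, adjusted p = 0.856, 95% interval -0.16 to 0.97). HE2 was 5.52-fold above HB (log2 2.47 ± 0.271, adjusted p = 8.99e-05), and HP was 36.6-fold above ES (log2 5.19 ± 0.309, adjusted p = 7.28e-07). The calls of Ikzf1 and Ikzf2 from ES to each later stage, from HE1 to HE2 and to HP, and from HB to HE2 were made in 18 of 18 alternative fits each.

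Against all genes tested, the background of the ES to HB step was 11.5% called higher and 17.3% called lower, and 2 of the 5 members were called higher. From HB to HE1, 12.7% of genes were called higher and 8.19% lower. No member was called there by edgeR, limma-voom or DESeq2, and 1 member, Ikzf4, had an unadjusted p under 0.05 in edgeR. Of the 22596 genes tested at this step, 5327 higher and 4585 lower genes also had an unadjusted p under 0.05 in edgeR. From HE1 to HE2, 3.26% of genes were called higher and 5.39% lower, and Ikzf1 and Ikzf2 were the 2 members called, both higher. From HE2 to HP, 0.0% of genes were called in edgeR, where 670 higher and 1113 lower genes had an unadjusted p under 0.05; limma-voom called 35 higher and 27 lower, and DESeq2 108 and 193. None of the 5 members was called at that step by any of these tools or had an unadjusted p under 0.05 in edgeR. From HE1 to HP, 5.35% of genes were called higher and 11.2% lower, with Ikzf1 and Ikzf2 higher. From HB to HE2, a comparison added after the values were seen, 9.76% were called higher and 11.0% lower, and 2 members were called in each direction. Those lower were Ikzf3, tested because of its ES counts and called in 10 of 17 alternatives, and Ikzf4, called in 14 of 18. The counts for this comparison are therefore a description. The median log2 fold change of the 5 members from HE1 to HE2 was 0.29, the value of Ikzf5, beside -0.08 over all genes tested.

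**Figure D2:**
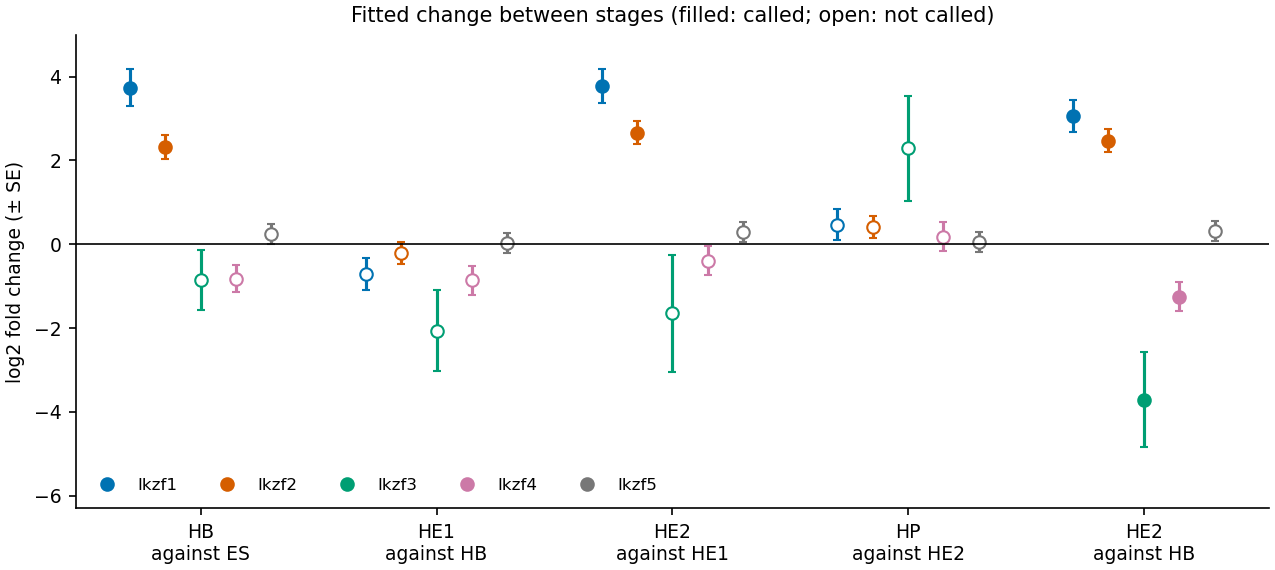
Fitted log2 fold change with its standard error for each Ikaros family gene between stages, from edgeR over all 10 libraries; filled points were called and open points were not. Ikzf1 and Ikzf2 are called at HB against ES, HE2 against HE1 and HE2 against HB, and no member is called at HE1 against HB or HP against HE2.

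Ikzf5, which encodes Pegasus, was the one member above 9 CPM in all 10 libraries. It stood at 26.7 and 26.6 CPM in ES, 34.9 and 28.6 CPM in HB, 41.6 and 23.1 CPM in HE1, 39.5 and 39.7 CPM in HE2, and 38.3 and 44.2 CPM in HP. The HE1 pair spanned nearly the whole range of the gene and overlapped all other stages. It was not called in any comparison or alternative. The mean was 1.55-fold higher in HP than in ES (log2 0.63 ± 0.238, adjusted p = 0.0461, 95% interval 0.10 to 1.16), which passed the p threshold and not the fold threshold. Neighbours in the order of mean level (ES, HB, HE1, HE2, HP) were not called different, with log2 fold changes of 0.25, 0.02, 0.29 and 0.06.

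Ikzf4, which encodes Eos, stayed under 9 CPM in every library. It stood at 7.52 and 6.97 CPM in ES, 4.07 and 4.17 CPM in HB, 2.02 and 2.51 CPM in HE1, 2.19 and 1.27 CPM in HE2, and 2.05 and 1.88 CPM in HP. The ES and HB pairs stood apart from each other and from all later libraries, and HE1, HE2 and HP overlapped. Neither single step passed the call, with log2 fold changes of -0.82 ± 0.33 from ES to HB (adjusted p = 0.0724) and -0.86 ± 0.34 from HB to HE1 (adjusted p = 0.0775). Over both steps the level in HE1 was 3.19-fold below ES (log2 -1.67 ± 0.342, adjusted p = 0.00212). It was 4.17-fold below ES in HE2 (log2 -2.06 ± 0.346, adjusted p = 0.000614) and 3.68-fold below ES in HP (log2 -1.88 ± 0.342, adjusted p = 0.00101). The call from HB to HE2 (log2 -1.25 ± 0.343, adjusted p = 0.0196) was lost without either HB library (adjusted p = 0.0682 and 0.0776) or without HE2 replicate 2 (adjusted p = 0.123).

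Ikzf3, which encodes Aiolos, was at the limit of detection. The ES libraries held 26 and 15 counts, HB 9 and 7, HE1 2 and 1, HE2 1 and 0, and HP 6 and 1. No library reached 1 CPM, the highest being 0.461 CPM in ES replicate 1, and 3 counts, taken as the floor, correspond to 0.0532 to 0.126 CPM per library. The HE1 and HE2 libraries lay at or under the floor, and the HP pair fell on either side of it. Summed over the pair, ES held 41 counts and HE1 3, a ratio of 8.10 with a 95% exact counting interval from 2.58 to 40.9. The ratio of ES to HE2, with 1 count, was 28.9 (interval 4.91 to 1170), that of ES to HP was 4.83 (interval 2.15 to 12.8) and that of ES to HB was 1.85 (interval 1.01 to 3.53). These intervals cover counting error only. edgeR called HE1, HE2 and HP lower than ES (adjusted p = 0.0194, 0.00442 and 0.0338) and HE2 lower than HB (adjusted p = 0.0306). The HP call was made in 10 of 18 alternatives, the HE1 call in 14 of 18, the HE2 call in 17 of 18 and the call from HB to HE2 in 10 of 17. Among those lost without 1 library, the HE1 call was lost without ES replicate 1, ES replicate 2 or HE1 replicate 2 (adjusted p = 0.124, 0.102 and 0.111), and the HE2 call without HE2 replicate 2 (adjusted p = 0.0508). The HP call was lost without either library of ES (adjusted p = 0.201 and 0.166), of HB (adjusted p = 0.0706 and 0.069) or of HP (adjusted p = 0.0504 and 0.211), and the call from HB to HE2 without either library of ES (adjusted p = 0.0932 and 0.0907), of HB (adjusted p = 0.149 and 0.0792) or of HE2 (adjusted p = 0.0652 and 0.192). The fitted folds also moved by over 1.5 times with 1 library left out. The log2 fold change from ES to HE1 went from -2.91 to -3.65 without HE1 replicate 1, that from ES to HE2 from -4.56 to -6.99 or -3.73 without HE2 replicate 1 or 2, that from ES to HP from -2.27 to -3.67 or -1.68 without HP replicate 1 or 2, and that from HB to HE2 from -3.71 to -6.14 or -2.88 without HE2 replicate 1 or 2. Ikzf3 exceeded 9 counts in the ES libraries alone, so its place among the tested genes rests on the stage where it is highest.

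From ES to HP, 2 members were called higher and 2 lower, beside 16.7% and 21.9% of all genes. One of those lower is Ikzf3, which was tested because of its ES counts and whose call was made in 10 of 18 alternatives, so these counts are a description. From ES to HE1 the same counts stood beside 20.3% higher and 20.4% lower, and from ES to HE2 beside 16.3% and 21.9%. Comparisons with ES share the 2 ES libraries, so their calls are not separate evidence.

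Levels of different genes were compared as CPM per kb of exon. In ES cells Ikzf5 made up 69.7% and 70.7% of the summed level of the family, Ikzf4 17.4% and 16.4%, Ikzf2 7.61% and 7.82%, and Ikzf1 4.46% and 4.31%. In HB the Ikzf1 share was 26.9% and 34.8%, and in HE1 it was 23.6% and 20.6%, with Ikzf5 still the largest share in all 4 libraries. In HE2 and HP Ikzf1 was the largest, at 52.3% and 64.9% in HE2 and 65.3% and 60.8% in HP, while Ikzf5 had 18.1% and 9.97% in HE2 and 9.10% and 11.3% in HP. Ikzf4 fell to under 1% of the family in these 4 libraries. The summed level of the family was 6.63 ± 0.0776 CPM per kb in ES cells (SD, n = 2) and 12.7 ± 0.371 CPM per kb at the HB stage. It was 10.6 ± 4.25 CPM per kb at HE1 and 53.8 ± 22.3 CPM per kb at HE2, both with a wide spread between libraries. HP cells had the highest mean sum, 71.1 ± 3.63 CPM per kb, 10.7 times that of ES cells, but their libraries (73.7 and 68.6) overlapped those of HE2 (38.0 and 69.6).

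**Figure D3:**
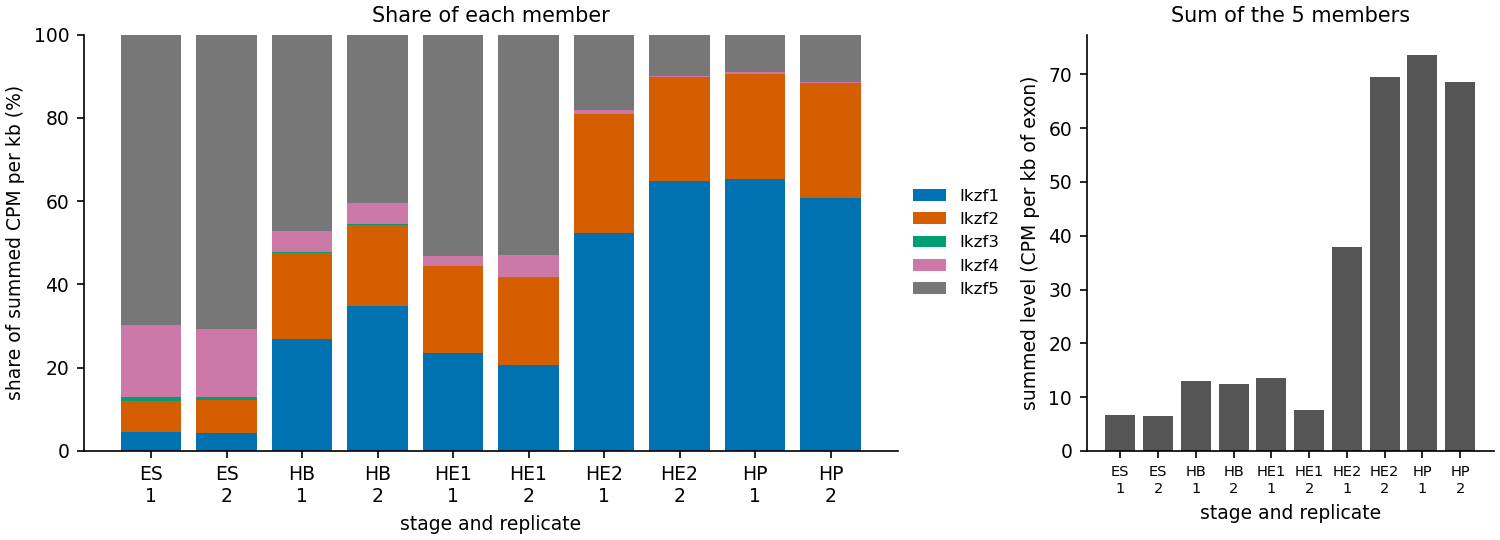
Left, share of each Ikaros family gene in the summed CPM per kb of exon of the family, in percent, for each library; right, the summed level in CPM per kb. Ikzf5 is the largest share in the 6 ES, HB and HE1 libraries and Ikzf1 in the 4 HE2 and HP libraries.

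The ratio of Ikzf1 to Ikzf2 within a library, also per kb of exon, does not depend on library scaling. It was 0.586 and 0.551 in ES, so Ikzf2 was the higher of the pair, 1.30 and 1.78 in HB, and 1.13 and 0.972 in HE1. It was 1.82 and 2.61 in HE2 and 2.59 and 2.21 in HP. The ES pair lay below all other libraries, and the HE2 and HP pairs above all others.

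For Ikzf1 and Ikzf2 the libraries within a stage differed most in HE1 and HE2, with ratios of the higher to the lower library of 2.04 and 2.27 for Ikzf1 and 1.75 and 1.59 for Ikzf2. HE1 replicate 2 was the lower HE1 library for Ikzf1, Ikzf2 and Ikzf5 and the higher for Ikzf4 (2.51 against 2.02 CPM). Ikzf3, with 2 and 1 counts, was under the floor in both. The summed level of the 3 ES markers Pou5f1, Nanog and Zfp42 was 4.50 CPM in HE1 replicate 1 and 49.0 CPM in HE1 replicate 2, against 1190 to 1250 CPM in ES cells, 66.3 to 83.6 CPM in HB and 0.954 to 4.95 CPM in HE2 and HP. The 4 endothelial markers Cdh5, Pecam1, Tek and Emcn summed to 2750 and 1590 CPM in these HE1 libraries. HE2 replicate 1 was the lower HE2 library for Ikzf1 and Ikzf2, with 1640 CPM of endothelial markers against 913 CPM in replicate 2. The part of these differences in the values of the family was not tested. With any of these libraries left out, the log2 fold change from HE1 to HE2 was at least 3.07 for Ikzf1 and at least 2.31 for Ikzf2.

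The sort antigens were checked as RNA. Kit stood at 110 ± 51.9 CPM in HE1, 320 ± 127 CPM in HE2 and 307 ± 79.4 CPM in HP (SD, n = 2). Itga2b, which encodes CD41, stood at 177 ± 71.0 CPM in the CD41- HE1 population, 487 ± 25.3 CPM in HE2 and 384 ± 23.8 CPM in HP. Tek, which encodes TIE2, stood at 429 ± 191 CPM in HE1, 222 ± 89.2 CPM in HE2 and 62.8 ± 1.89 CPM in the TIE2- HP population. Nuclear RNA of Itga2b and Tek was thus present in the population sorted for absence of the protein.

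Markers of several blood lineages rose at the same step as Ikzf1 and Ikzf2. From HE1 to HE2, where 3.26% of all genes were called higher and 5.39% lower, 5 of 5 hematopoietic markers (Kit, Itga2b, Runx1, Spi1 and Ptprc) were called higher, as were 4 of 4 erythroid markers (Gata1, Klf1, Hbb-bh1 and Hba-x). Of the megakaryocyte markers (Pf4, Gp9 and Itgb3) 2 of 3 were called higher, and of the myeloid markers (Mpo, Csf1r, Elane and Fcer1g) 2 of 3 tested. Among these, Pf4 and Fcer1g held at most 12 counts in any library before HE2 and entered the test through the stages where they are high, and Itga2b encodes the antigen on which HE1 and HE2 were sorted, so their calls are a description only. The erythroid list summed to 228 to 476 CPM in HE1, 1580 to 1960 CPM in HE2 and 2290 to 4260 CPM in HP. The megakaryocyte list summed to 68.5 to 97.2 CPM in HE1, 1070 to 1410 CPM in HE2 and 1140 to 1580 CPM in HP, nearly all of it Itgb3, with Pf4 at 1.71 and Gp9 at 1.82 CPM on average in HP. The myeloid list summed to 3.20 to 7.74 CPM in HE1, 67.1 to 158 CPM in HE2 and 126 to 262 CPM in HP. Most of it in HE2 and HP was Mpo, with Csf1r at 7.65 and Fcer1g at 7.53 CPM on average in HP. Elane, a granule protease gene, stayed at 0.149 CPM or below in the mean of every stage. At the first rise of Ikzf1 and Ikzf2, from ES to HB, where 11.5% of all genes were called higher and 17.3% lower, 3 of 3 HB markers (Kdr, Etv2 and Tal1) and 3 of 5 hematopoietic markers were called higher. The latter were Runx1 (log2 4.83 ± 0.286), Itga2b (log2 3.92 ± 0.294) and Spi1 (log2 2.65 ± 0.477), while Kit and Ptprc were called lower. Of the 4 erythroid markers 2, Gata1 and Hbb-bh1, were called higher, and of the myeloid markers 1 of 3 tested, Mpo. Kdr encodes FLK1, the antigen on which HB cells were selected, and Mpo held 4 counts in each ES library and entered the test through later stages, so these calls are a description only. The erythroid list summed to 2.58 to 2.91 CPM in ES and 8.66 to 9.38 CPM in HB, and the myeloid list to 0.443 to 0.545 CPM in ES and 2.81 to 3.01 CPM in HB. The megakaryocyte list, with none of its 3 genes called, summed to 13.3 to 13.4 CPM in ES and 11.7 to 13.2 CPM in HB. The part of the cell makeup of each population in the levels of Ikzf1 and Ikzf2 was not tested.

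**Figure D4:**
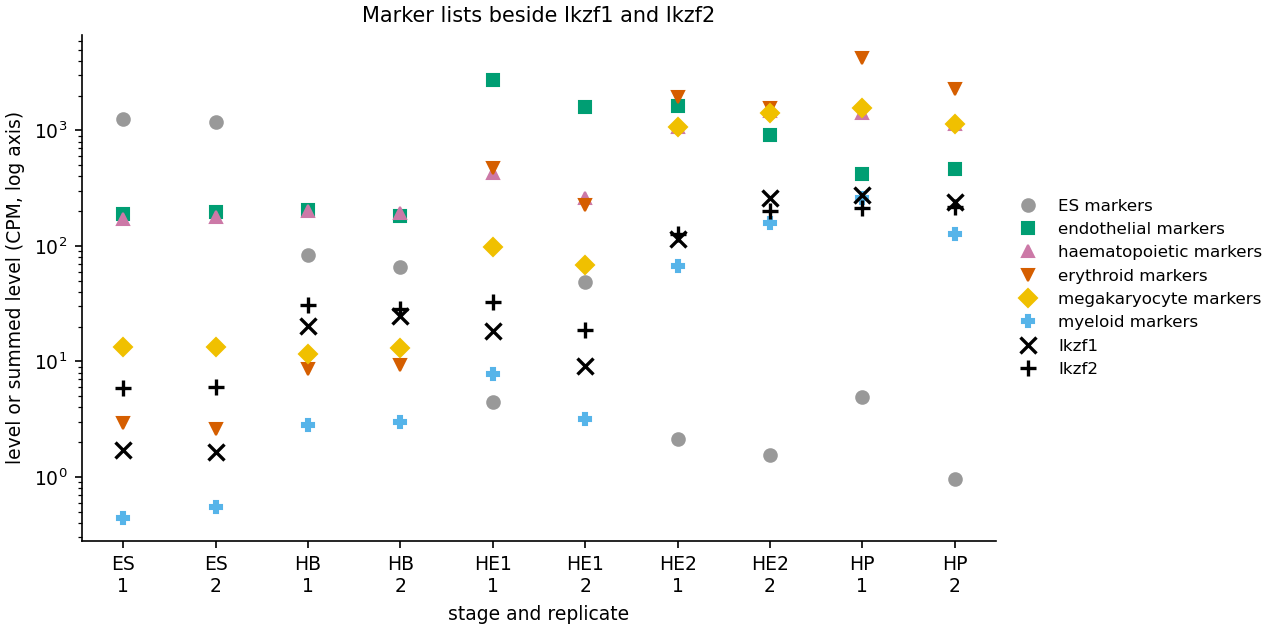
Ikzf1 and Ikzf2 (crosses, CPM) and summed CPM of marker lists (coloured symbols) in each library, on a log axis. Erythroid, megakaryocyte and myeloid lists stand higher in the 4 HE2 and HP libraries than in HE1, as Ikzf1 and Ikzf2 do, and HE1 replicate 2 holds 49.0 CPM of ES markers against 4.50 CPM in replicate 1.

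Lymphoid genes, with which the family is most often associated, were under 9 CPM at every stage, except Ebf1. Of the 5 early lymphoid genes Flt3, Il7r, Dntt, Rag1 and Rag2, 1 passed the filter on low counts. This was Il7r, the interleukin 7 receptor, which entered the test through the stages where it is high. It was called higher in HP than in ES (adjusted p = 0.00147) but reached only 1.08 ± 0.406 CPM in HP (SD, n = 2). Rag1 and Rag2, the antigen receptor recombinases, averaged 0.0864 and 0.0114 CPM in HP. Of the 6 B cell genes, 3 were called lower from ES to HP and none higher, beside the same background of 16.7% higher and 21.9% lower. They were Igll1, Pax5 and Ebf1, and Ebf1, an early B cell factor that is also active outside the B lineage, was the most abundant. Ebf1 stood at 10.1 ± 0.625 CPM in ES cells, 10.7 ± 0.451 CPM at HB, 11.5 ± 3.73 CPM at HE1 and 8.04 ± 2.30 CPM at HE2, and at 1.87 ± 0.454 CPM in HP cells. Of the 6 T cell genes 4 were tested, and Cd3e, Cd4 and Foxp3 were called lower, against the same background. Igll1, Pax5, Cd3e, Cd4 and Foxp3 had their highest counts in ES and few later, so they entered the test through the stage where they are high and their calls are given as a description only. Foxp3, the regulatory T cell factor, stood at 0.432 ± 0.16 CPM in ES and 0.0843 ± 0.0743 CPM in HP. The summed level of the T cell list was at most 0.793 CPM in any library after ES.

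Genes for the corepressors that Ikaros recruits were expressed throughout. From ES to HP, 16.7% of all genes were called higher and 21.9% lower. Of 13 NuRD subunits, 1 was called from ES to HP, the methyl-CpG binding gene Mbd2, which rose from 15.3 ± 0.893 to 52.5 ± 4.29 CPM (log2 1.78 ± 0.153, adjusted p = 7.14e-06). The median log2 fold change of the NuRD list was 0.15, beside -0.01 over all genes tested. Chd4, the NuRD ATPase, stood at 1020 ± 17.6 CPM in ES and 956 ± 90.8 CPM in HP (log2 -0.09 ± 0.208, adjusted p = 0.736). Its paralogue Chd3 peaked in HE1, at 106 ± 3.87 CPM. It was the 1 gene of the 13 called lower from HE1 to HE2, where 5.39% of all genes were called lower. Of the 4 Sin3 and CtBP genes 2 were called from ES to HP, with Ctbp1 called higher (log2 1.19 ± 0.161, adjusted p = 0.000152) and Ctbp2 called lower (log2 -2.34 ± 0.133, adjusted p = 5.41e-07). Ctbp2 stood at 270 ± 0.538 CPM in ES, 78.0 ± 2.12 CPM in HB and 53.2 ± 1.71 CPM in HP.

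The cereblon ubiquitin ligase degrades Ikaros and Aiolos in human cells treated with lenalidomide and related drugs. Crbn, which encodes the substrate receptor, stood at 36.0 ± 0.33 CPM in ES and 45.9 ± 3.86 CPM in HP and was not called (log2 0.35 ± 0.174, adjusted p = 0.118). Of the 5 genes, the cullin Cul4a was called higher from ES to HP (log2 1.26 ± 0.141, adjusted p = 4.09e-05) and its paralogue Cul4b lower (log2 -1.11 ± 0.183, adjusted p = 0.000553), which is close to the share of all genes called in each direction (16.7% and 21.9%). No drug was used here.

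**Figure D5:**
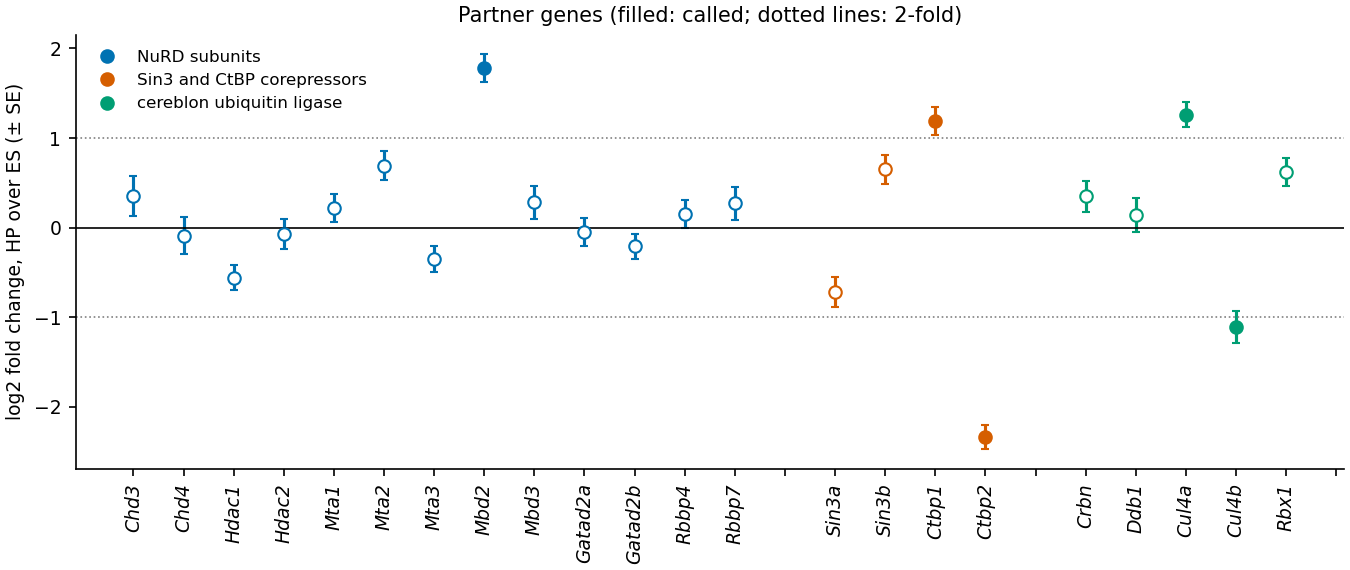
Fitted log2 fold change from ES to HP, with its standard error, for genes of the NuRD complex, the Sin3 and CtBP corepressors and the cereblon ubiquitin ligase; filled points were called and dotted lines mark 2-fold. Mbd2, Ctbp1 and Cul4a are called higher and Ctbp2 and Cul4b lower, and no other gene shown is called.

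The genes of most like pattern were ranked by Pearson's r of log2 CPM over the 10 libraries, among 15566 tested genes. The points share 5 stages, so r is given as a description. Ikzf2 ranked first for Ikzf1 (r = 0.996), before Prkcq, a protein kinase C gene, and Smim1, a small red cell membrane protein gene. Ikzf1 ranked second for Ikzf2, between the cytokine receptor gene Il9r (r = 0.998) and the transcriptional repressor gene Gfi1b (r = 0.995). By Spearman's rho the pair fell to ranks 470 and 416 (rho = 0.903), so first place rests on the measure used. For Ikzf4 the genes were Castor1, Setd4 and Dnajc22 (r = 0.993, 0.992 and 0.991). For Ikzf3, whose values rest on few counts, they were Fcgbp, H2-K1 and Thbs4 (r = 0.973, 0.966 and 0.962), and for Ikzf5 they were Zfp91, Mfsd4b4 and Capn7 (r = 0.972, 0.966 and 0.962).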

How the data were processed

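Nuclear RNA of 5 stages, 2 libraries each, was sequenced from rRNA-depleted, strand-specific libraries. The authors trimmed reads with Trimmomatic, aligned them to mm10 with HISAT2 2.2.1 and counted read pairs per Ensembl 102 gene with featureCounts 2.0.1, stranded, a pair on several genes being counted on each. The deposited counts are unnormalized. The matrix the authors deposited holds a score per stage, an averaged CPM scaled by edgeR, and was used to find the members and as an alternative level. Here edgeR 4.0.16 was fitted to the counts of all 10 libraries with stage as the only term, after TMM scaling and filterByExpr by stage, which left 22596 genes. Alternatives used limma-voom (limma 3.58.1), DESeq2 1.42.0 and other settings. Intervals are 95% and use the t quantile. The test was tested on simulated data for HP against HE1 with 22596 genes, where it recovered 90% of 200 genes changed by 2 on the log2 scale, with 3 false calls. The changed genes were drawn from those with a mean above 1 CPM, so the recovery does not cover genes as low as Ikzf3. Depth was 24920434 to 58782055 counts per library. Sequences and exons are from GENCODE mouse release 21 (GRCm38). Named genes are the members, up to 4 called genes of each list by size of change from ES to HP, and the 3 genes most like each member; the marker and early lymphoid lists are spelled out whole, and Chd3, Chd4, Crbn, Pstk, Fgfr2, Gm28112 and Gm29112 were added for their role or after their values were seen. The members and lists were chosen with earlier results of these data known. Of the lists, 1 B cell gene and 1 megakaryocyte marker are not reported here.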

Additional observations from a re-analysis of the deposited data

How the results depend on the processing

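Of 805 member fold changes under alternatives, 764 kept direction and call, 26 lost the call (20 of Ikzf3, 6 of Ikzf4), 1 gained it (Ikzf1, HE1 against HB, -1.36 without HE1 replicate 1) and 14 changed sign, none of them called. The sign changes of Ikzf5 were, on the log2 scale, for HE1 against HB -0.05 (limma-voom), -0.02 (library sizes without the 20 genes of most counts), -0.03 and -0.03 (without ES replicate 1 or 2), -0.16 (without HB replicate 2) and -0.50 (without HE1 replicate 1), for HE2 against HE1 -0.07 and HP against HE1 -0.01 (without HE1 replicate 2), for HP against HE2 -0.04 (without HP replicate 2) and for HE1 against ES -0.23 (without HE1 replicate 1). Those of other members were Ikzf2 from HB to HE1, 0.16 without HE1 replicate 2; Ikzf1 and Ikzf4 from HE2 to HP, -0.01 and -0.15 without HE2 replicate 1 or 2; and Ikzf3 from HE1 to HP, -0.74 without HP replicate 1. Leaving out 1 library, 0 to 1 members were called from HB to HE1 and 2 to 4 from HB to HE2. The alternative with a threshold of at least 4-fold reused the main fit, so it could change no direction. The Ikzf4 calls lost from ES to HE1 and from ES to HP were lost in it alone. It also lost the Ikzf4 call from HB to HE2. With 5 CPM in place of 9, 3 members counted as expressed in ES. Of each member's 3 most like genes, 0 were kept with Spearman's rho, and with r over the 5 stage means 0 were kept for each member but Ikzf4, which kept 1. Where leaving out 1 library turned a sign, the other end of the range was -0.70 for Ikzf2 from HB to HE1, 1.18 for Ikzf1 and 0.63 for Ikzf4 from HE2 to HP, and 1.38 for Ikzf3 from HE1 to HP. For Ikzf5 it was 0.39 from HB to HE1, 0.80 from HE1 to HE2, 0.86 from HE1 to HP, 0.16 from HE2 to HP and 0.64 from ES to HE1. The causes were not tested.

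The replicate number as a block changed no member's call: 2 members were called from ES to HB and 2 from HE1 to HE2 with it (Ikzf1 log2 3.74 and 3.75). Deviations of libraries with the same number correlated between -0.316 and 0.213 over the stage pairs. This check and the block compare libraries by number only. They cannot show whether libraries with different numbers share a culture or batch, which was not tested. Depth limits Ikzf3, which had 0 to 26 counts per library.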

Other observations

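A pair of short genes of unknown function, Gm29112 and Gm28112, overlap the span of Ikzf2 on its strand and share no exon base with it. They were chosen after their values were seen. Both held at most 5 counts in an ES library and entered the test through later stages where they are high, so their calls and folds against ES are a description only. Gm28112 held 3 and 5 counts in ES cells, and 25 and 25 at the HB stage. It held 20 and 35 counts at HE1, then 61 and 103 at HE2. HP libraries held 126 and 162 counts, and the gene was called higher in HP than in ES (log2 5.40 ± 0.634, adjusted p = 5.53e-05). Gm29112 held 4 and 0 counts in ES and 106 and 164 in HP, and was also called higher. Both were called higher from ES to HB (log2 3.02 for Gm28112 and 3.22 for Gm29112), from HE1 to HP (log2 1.99 and 2.53) and from HB to HE2 (log2 1.74 and 2.42). From HE1 to HE2 their log2 fold changes were 1.35 and 1.80 and were not called (adjusted p = 0.091 and 0.116), while that of Ikzf2 was. The libraries hold nuclear RNA, in which unspliced Ikzf2 RNA can be counted on such genes, and its part in these counts was not tested.

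Fgfr2, a fibroblast growth factor receptor gene that overlaps the span of Ikzf5 on the same strand without sharing exon bases, fell from ES to HP (log2 -2.86 ± 0.229, adjusted p = 4.39e-06), while Ikzf5 was not called. Pstk, which overlaps Ikzf5 on the opposite strand, was not called either (log2 -0.40 ± 0.198, adjusted p = 0.113).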
